A study of Arabidopsis thaliana with 6 samples.

Results

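The type-A response regulators of Arabidopsis thaliana are a family of 10 genes. They were listed by locus and not by a measured value, though with earlier results of these data known. The genes are ARR3 (AT1G59940), ARR4 (AT1G10470), ARR5 (AT3G48100), ARR6 (AT5G62920), ARR7 (AT1G19050), ARR8 (AT2G41310), ARR9 (AT3G57040), ARR15 (AT1G74890), ARR16 (AT2G40670) and ARR17 (AT3G56380). They are 10 of the 33602 loci counted. Cytokinin is a plant hormone that binds histidine kinase receptors, from which a phosphate passes through phosphotransfer proteins to response regulators in the nucleus. The type-B regulators are transcription factors, and the type-A genes are among their fast targets. Type-A proteins carry the phosphate-accepting receiver domain without a DNA-binding domain, and most of them dampen the signal that induces them. In the young leaf, cytokinin keeps cells dividing, and in the stomatal lineage it acts on the divisions that produce stomatal lineage ground cells, the cells named in the title of the series.

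RNA sequencing counts were analysed for 6 libraries from 3 lines of the Columbia ecotype, 2 libraries per line. The genotypes were BRXp:BRX-YFP, BRXL2p:BRXL2-YFP and myrBRXp:myrBRX-YFP, called BRX, BRXL2 and myrBRX here. Each construct was tagged with YFP and written with a promoter of its own name, and the labels list no hormone treatment. True leaves were taken at 9 days post germination, after 2 days of cold and growth at 22 °C with 16 h of light and 8 h of dark. About 20000 sorted cells were used per sample. The sort gate, the number of transgenic events behind a line, any mutant background and whether a line's libraries came from separate plants are not given in the sources used here. The p-values below therefore measure the spread between these libraries, which may be technical. No untransformed control was analysed here.

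Library totals ranged from 25817906 to 42113178 counts. BRX, a construct gene, had its lowest CPM (counts scaled to library size, with edgeR's TMM factors) in the line named after it. It stood at 6.1 and 11.7 CPM there, 22.7 and 31.9 in BRXL2, and 32.3 and 72.7 in myrBRX, so the name "libraries labelled BRX" is used below, and a direction given against them carries this doubt. BRXL2 stood at 1570 and 1380 CPM in its own line and at 12.6 to 150 CPM in the other 4 libraries. Library composition also differed. The 6 phloem and vascular markers summed to 480 and 252 CPM in the BRXL2 libraries and to between 4.66 and 13.8 CPM in the other 4, in which APL, a phloem identity factor, had 0 or 1 counts. SUC2 was the only 1 of the 6 not higher in BRXL2, at 1.02 and 3.08 CPM there. It stood at 10.1 and 2.08 CPM in the libraries labelled BRX and at 2.86 and 8.13 in myrBRX. The 7 stomatal lineage markers summed to 199 to 1230 CPM and the 4 epidermal markers to 546 to 6190 CPM, both highest in the library BRX 1. There POLAR held 741 CPM of the former sum, and PDF1 and FDH held 2930 and 2510 CPM of the latter. SPCH, BASL and POLAR were highest in BRX 1, TMM in BRX 2, and MUTE, EPF1 and EPF2 in a BRXL2 library. PDF2, PDF1 and FDH were highest in BRX 1, but ATML1 only ranged from 90.1 to 132 CPM and was highest in myrBRX 2. The stomatal gene MUTE had 0 counts in BRX 2. The 8 guard cell markers summed to 108 to 918 CPM (lowest in BRX 1, highest in myrBRX 1), but TGG1 alone held 891 CPM in myrBRX 1. HT1 was at 0 in every library labelled BRX or BRXL2. TGG2 went the other way, at 47.7 and 27.6 CPM in BRXL2 against 0.0301 and 0.0781 in myrBRX. KAT1 did so too (5.74 and 10.3 against 1.41 and 0.026 CPM). For myrBRX against BRXL2, 4 of the 8 had a log2 fold change above 0 and 4 below. The 4 mesophyll markers summed to 196 CPM in myrBRX 1 up to 868 CPM in BRX 1, and RBCS1A alone held 174 and 849 CPM of these. LHCB2.1, LHCB1.3 and CAB3 were instead highest in BRXL2 2, at 18.5, 97.6 and 11.5 CPM. The 3 trichome markers summed to 0.0781 to 2.74 CPM. The part of these cell types in the results below was not tested. In RNA from many cells, fewer cells of a type and less RNA per cell cannot be told apart.

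ARR4 made up most of the type-A counts pooled over the libraries, with 39.4% in BRX 1 up to 88.5% in BRX 2, and ARR17 was not detected. Of the 9008 type-A counts in all libraries, ARR4 held 72.9%, ARR7 9.17%, ARR8 7.66%, ARR16 5.04% and ARR9 4.3%. ARR5, ARR6, ARR3 and ARR15 held 31, 27, 14 and 8 counts, and ARR17 held none. Summed over the 10 genes, BRXL2 had 25.1 ± 3.08 CPM and myrBRX 57.6 ± 16.7, with 45.5 ± 12.4 for the libraries labelled BRX (SD, n = 2). Single libraries stood at 22.92 and 27.28, at 69.42 and 45.78, and at 36.74 and 54.29 CPM in this order. The BRXL2 libraries were thus the lowest on this sum, while those of myrBRX and those labelled BRX overlapped. No test was made on the sum.

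**Figure D1:**
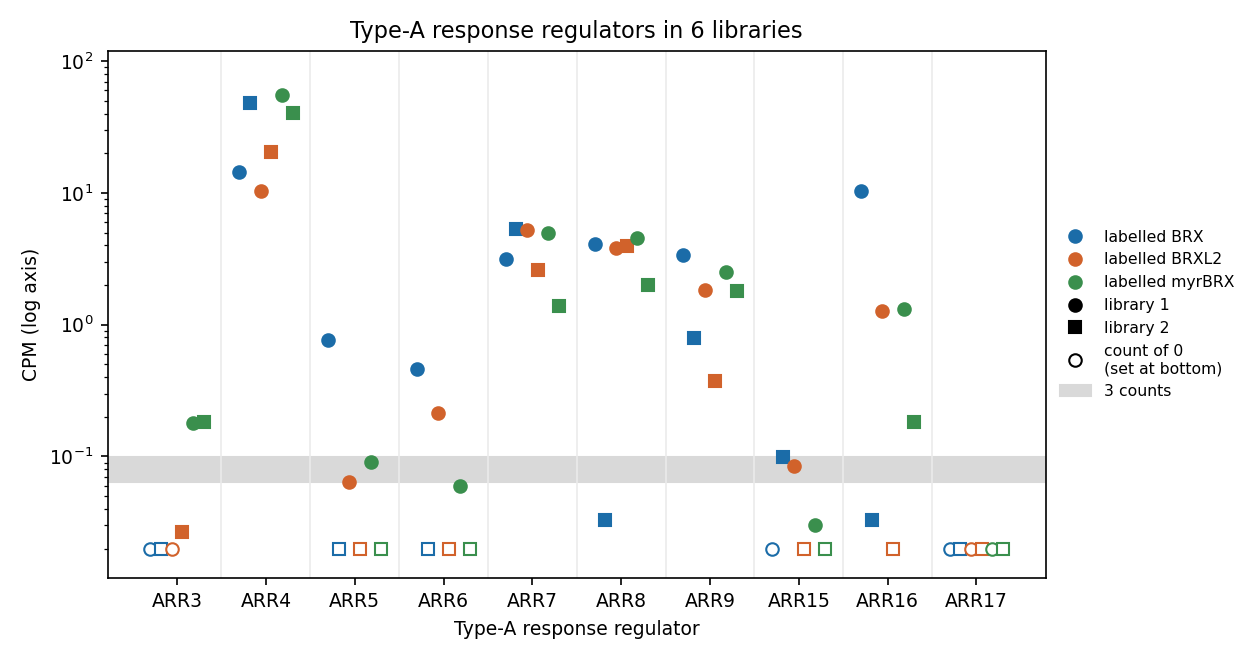
CPM of the 10 type-A genes on a log axis, 1 point per library, coloured by line. Open points are counts of 0, set at the bottom of the plot, and the grey band is the CPM that 3 counts give. ARR4 sits between 10.4 and 55.7 CPM, ARR7 between 1.38 and 5.29, and ARR17 is at 0 in all 6 libraries.

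Levels of different members were compared per kilobase of annotated exon, with lengths from the TAIR10.1 annotation, which may differ from the one used for counting. ARR4 led with a mean of 15 CPM per kb (range 4.95 to 26.5), above 81.5% of the 22268 loci with a count and a length. ARR7 followed at 4.01 CPM per kb, above 56.7% of these loci, and stood below ARR4 in 5 of 6 libraries. The exception was BRXL2 1, where ARR7 had 5.55 and ARR4 4.95 CPM per kb. ARR7 exceeded ARR8, at 1.3 CPM per kb, in 6 of 6 libraries. Among ARR8, ARR16 (1.06) and ARR9 (0.939 CPM per kb) the order changed between libraries: ARR8 was above ARR16 in 4 of 6 and ARR16 above ARR9 in 1 of 6. ARR9 was above ARR5 in 6 of 6. ARR5, ARR6, ARR3 and ARR15, at 0.105, 0.0835, 0.0495 and 0.0331 CPM per kb, could not be ranked beyond their spread.

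**Figure D2:**
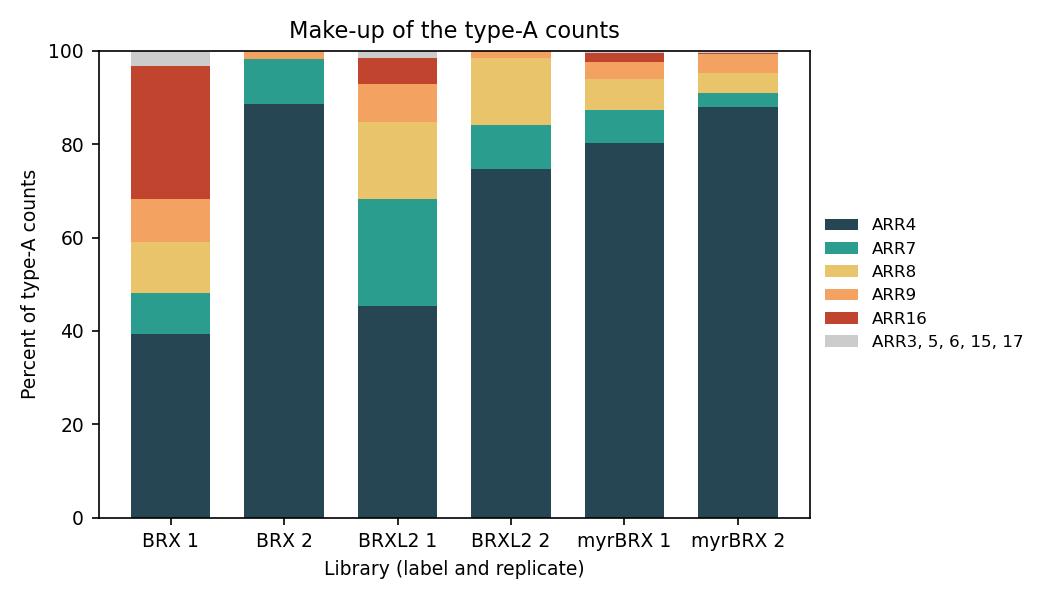
Percent of the type-A counts of each library that fell on ARR4, ARR7, ARR8, ARR9, ARR16 or the remaining 5 genes. ARR4 holds 39.4% in BRX 1 and 45.4% in BRXL2 1, against 74.6% to 88.5% in the other 4 libraries.

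The make-up of the family differed widely between libraries of the same line. ARR4 held 39.4% of the type-A counts in BRX 1 (exact Clopper-Pearson 95% interval 36.6 to 42.2) and 88.5% in BRX 2 (86.8 to 90). ARR16 held 28.4% in BRX 1 (25.9 to 31) and 0.0609% in BRX 2 (0.00154 to 0.339). These intervals cover counting error only, since reads copied by PCR are not separate molecules when no identifier marks them. In BRXL2 the ARR4 share was 45.4% and 74.6%, and in myrBRX 80.2% and 87.9%. For the ARR4 and ARR16 shares the gap between the libraries of a line was smallest in myrBRX, but for ARR7 it was smallest in the line labelled BRX (8.64% and 9.74%, against 7.2% and 3.01% in myrBRX).

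Of the 10 genes, 6 passed the filter on low counts and were tested: ARR4, ARR6, ARR7, ARR8, ARR9 and ARR16. Each pair of lines was compared with edgeR's quasi-likelihood test over all 18174 genes that passed, at an adjusted p of 0.05. The series states the profiling of stomatal lineage ground cells as its purpose, and its labels do not mention cytokinin. None of the 6 was called in any comparison, against 0.0935% of all genes for BRXL2 against the libraries labelled BRX, 0% for myrBRX against these, 0.0495% for myrBRX against BRXL2 and 0.226% for any difference among the 3 lines. None had an unadjusted p under 0.05 in any of the 4 tests, by edgeR or by DESeq2. In edgeR's test of any difference 14.6% of all genes did, and 0 of 6 is near that share. Fits with a library left out leave a line with 1 library and are not counted in what follows. For myrBRX against BRXL2, 1 member had an unadjusted p under 0.05 with the replicate number as a block, beside 2419 of 18174 genes. With only the compared libraries this was 1 member, beside 2983 of 17507 genes. DESeq2 gave no adjusted p for ARR6. With so few calls over all genes, a count of 0 members is close to the background. The adjusted p for any difference ran from 0.551 for ARR4 to 0.98 for ARR7.

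ARR4 encodes a regulator known in Arabidopsis to bind the light receptor phytochrome B, besides its part in cytokinin feedback. It was counted 474 and 1453 times in the libraries labelled BRX, 489 and 760 times in BRXL2, and 1850 and 1545 times in myrBRX. These counts correspond to 14.5 and 48 CPM, 10.4 and 20.3 CPM, and 55.7 and 40.2 CPM. Both myrBRX libraries were above both BRXL2 libraries, while BRX 1 and BRX 2 spanned most of the range and overlapped each of the other lines. ARR4 was the only tested member without overlap between BRXL2 and myrBRX, a condition that 49% of all genes met. The log2 fold change of myrBRX against BRXL2 was 1.64 ± 0.86 (SE; edgeR unadjusted p = 0.0795, adjusted p = 0.459), the lowest p of any member. It stayed between 1.24 and 2.21 when a library was left out. Against the libraries labelled BRX, ARR4 had -1.02 ± 0.84 in BRXL2 (adjusted p = 0.783) and 0.62 ± 0.84 in myrBRX (0.765), and no member was free of overlap there, a condition met by 33.2% and 49.1% of all genes. Without BRX 2 these values were 0.09 and 1.74, and without BRX 1 they were -1.64 and 0.0019.

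ARR3, the closest relative of ARR4, was close to the limit of detection. It had 0 counts in each library labelled BRX, 0 and 1 in BRXL2, and 6 and 7 in myrBRX. The 2 myrBRX libraries were the highest for ARR3, as they were against BRXL2 for ARR4, but at 0.181 ± 0.00123 CPM (SD, n = 2) the level was far below that of ARR4. Against a floor of 3 counts per library, ARR3 in myrBRX was at least 1.9-fold higher than in the libraries labelled BRX. Against BRXL2 its ratio was 15.3, with a counting interval of 2.3 to 650.9. ARR3 did not pass the filter, so it has no test. It held 0.213% of the counts of the pair, and how reads shared by close relatives were counted is not given.

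ARR7 and ARR15 are a related pair, known in the shoot meristem as targets of the stem cell factor WUSCHEL. ARR7 had 104 and 160 counts in the libraries labelled BRX, 246 and 97 in BRXL2, and 166 and 53 in myrBRX. In CPM these were 3.17 and 5.29, 5.23 and 2.6, and 5 and 1.38. ARR7 was the steadiest tested member, its highest library being 3.83 times its lowest, and all lines overlapped. Its log2 fold changes were -0.11 ± 1.31, -0.41 ± 1.31 and -0.30 ± 1.31 for BRXL2 and myrBRX against the libraries labelled BRX and for myrBRX against BRXL2 (edgeR adjusted p = 0.994, 0.908 and 0.951). Each of these signs turned when certain single libraries were left out. ARR15 had 0 and 3, 4 and 0, and 1 and 0 counts in the libraries of the 3 lines, at or below 4 counts everywhere. No difference in ARR15 was detectable at this depth.

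ARR8 and ARR9 form another pair, of intermediate level. ARR8 had 134 and 1 counts in the libraries labelled BRX, 179 and 147 in BRXL2, and 152 and 77 in myrBRX, or 4.09 and 0.0331, 3.81 and 3.93, and 4.57 and 2.01 CPM. A single library, BRX 2, stood apart from the other 5. Its 1 count made the ARR8 gap within that line 5.56 on the log2 CPM scale, a gap that 3.53% of all tested genes equalled or passed between the same libraries. The log2 fold changes were 0.91 ± 1.71 for BRXL2 and 0.67 ± 1.70 for myrBRX against the libraries labelled BRX, and -0.23 ± 1.70 for myrBRX against BRXL2 (adjusted p = 0.932, 0.882 and 0.971). Without BRX 2 the former were -0.08 and -0.31. ARR9 had 110 and 24, 87 and 14, and 83 and 69 counts in these lines, or 3.36 and 0.794, 1.85 and 0.375, and 2.5 and 1.8 CPM. Its lines overlapped as well, and its log2 fold changes were -0.90 ± 1.71, 0.05 ± 1.69 and 0.94 ± 1.71 (adjusted p = 0.933, 0.997 and 0.864).

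**Figure D3:**
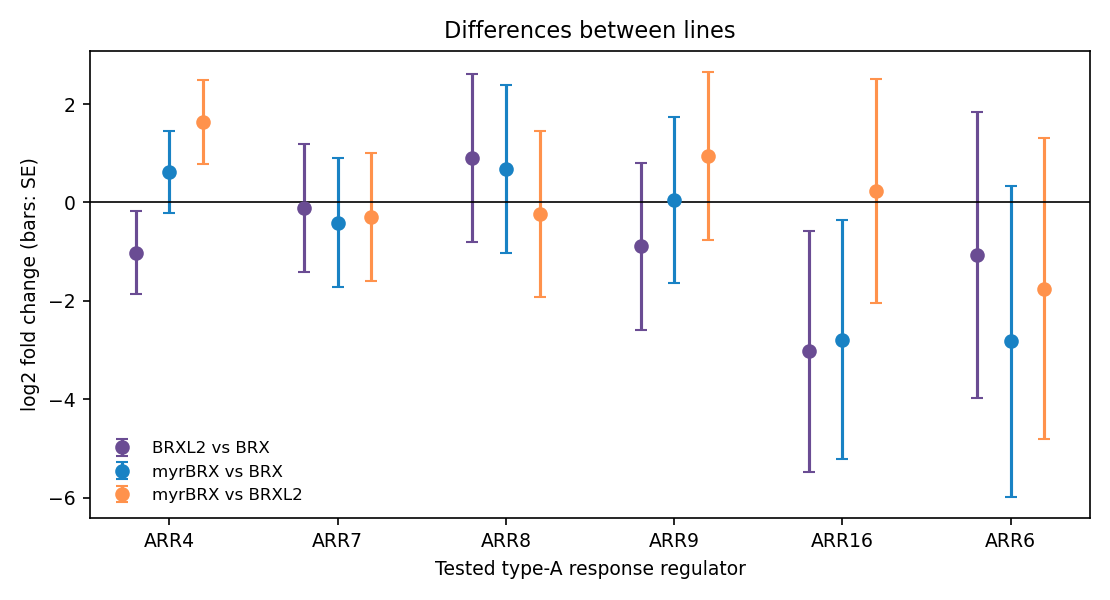
Log2 fold change with its SE for the 6 tested type-A genes in the 3 pairwise comparisons of lines. ARR4 in myrBRX against BRXL2 stands at 1.64 ± 0.86, ARR16 has the widest distance from 0, at -3.03 ± 2.45, and no gene passed the threshold.

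ARR16 is the member known in the stomatal lineage, where it has been linked to SPCH, the factor that starts the lineage, and to asymmetric division. It had 342 and 1 counts in the libraries labelled BRX, 60 and 0 in BRXL2, and 44 and 7 in myrBRX. In CPM these were 10.4 and 0.0331, 1.28 and 0, and 1.32 and 0.182. BRX 1 alone held 75.3% of all ARR16 counts, and the line labelled BRX thus had both the highest library and nearly the lowest. The gap between its libraries was 6.9 on the log2 CPM scale, which 0.941% of all tested genes equalled or passed. The log2 fold change was -3.03 ± 2.45 for BRXL2 and -2.79 ± 2.43 for myrBRX against the libraries labelled BRX (edgeR adjusted p = 0.778 and 0.612). Without BRX 1 they turned to 4.14 ± 4.07 and 4.38 ± 4.12, so their direction rested on that library. Between myrBRX and BRXL2 the value was 0.23 ± 2.28 (adjusted p = 0.979).

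Stomatal genes varied beside ARR16 in the same libraries. SPCH stood at 241 and 57.2 CPM in the libraries labelled BRX, 224 and 42 in BRXL2, and 73 and 28.8 in myrBRX. The summed stomatal lineage markers stood at 1230 and 476, 503 and 425, and 377 and 199 CPM. Like ARR16, SPCH and the sum were higher in library 1 than in library 2 of each line. Of the 7 markers, however, only SPCH and MUTE did so, and the other 5 (TMM, BASL, POLAR, EPF1 and EPF2) were higher in library 2 of at least 1 line. TMM, a receptor-like protein of the lineage, stood at 186 and 322 CPM in the libraries labelled BRX and at 208 and 303 CPM in BRXL2. The part of the stomatal lineage cells in the ARR16 values was not tested. ARR17, the closest relative of ARR16, had 0 of 219584930 counts, which allows a share of up to 1.37e-06% at a floor of 3 counts.

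ARR5 and ARR6 are a pair whose induction is a common readout of cytokinin treatment, ARR5 as a reporter gene. ARR5 had 25 and 0 counts in the libraries labelled BRX, 3 and 0 in BRXL2, and 3 and 0 in myrBRX. ARR6 had 15 and 0, 10 and 0, and 2 and 0. Both were therefore seen in library 1 of each line and never in library 2. ARR6 passed the filter through BRX 1 and BRXL2 1 alone, and its log2 fold changes of -1.07 ± 2.91, -2.82 ± 3.16 and -1.75 ± 3.05 had adjusted p = 0.959, 0.706 and 0.858 by edgeR. ARR5 did not pass. AT5G62910 overlaps ARR6 on the opposite strand in the annotation, and the strand setting of the counting is not given, so reads of these genes cannot be told apart.

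**Figure D4:**
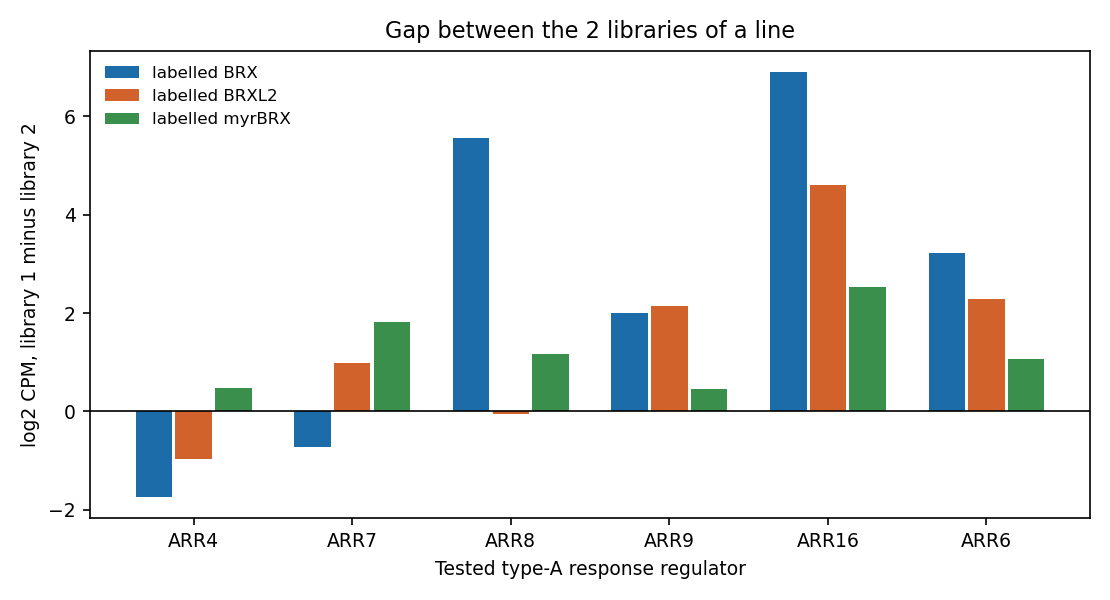
Log2 CPM (with a prior count of 2) of library 1 minus that of library 2 in each line for the 6 tested type-A genes. ARR16 reaches 6.9 in the line labelled BRX, ARR8 5.56, and ARR9, ARR16 and ARR6 are above 0 in all 3 lines.

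Some members followed the library number. ARR5, ARR6, ARR9 and ARR16 were higher in library 1 than in library 2 of each of the 3 lines, and no member was lower in all of them. This was noticed in the values, and of all genes tested 15.4% did the same. Nothing is read from the comparison, since ARR6 and ARR16 passed the filter on low counts through their library 1 samples and ARR5 did not pass. The labels do not say that a number marks a shared day or batch. ARR4 went the other way in the lines labelled BRX and BRXL2, ARR7 in that labelled BRX and ARR8, by 0.0474 log2 units, in BRXL2. Over the 6 libraries, ARR16 correlated with ARR6 at r = 0.93 and with ARR9 at 0.902, while ARR4 correlated with ARR6 at -0.678 and with ARR16 at -0.403. These values describe log2 CPM in libraries that share depth and composition, and ARR6 is near its floor in most of them.

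The genes most like ARR16 over the 6 libraries, out of 4080 with a symbol and a mean log2 CPM of at least 3, were NGA2, ASN3, emb1796, CDKD1;1 and FKBP53, at r = 0.968, 0.964, 0.961, 0.952 and 0.946. NGA2 encodes a NGATHA transcription factor of leaf and gynoecium growth, and CDKD1;1 a kinase that activates other cyclin-dependent kinases. NGA2 stood at 19.5 and 4.33 CPM in the libraries labelled BRX, 14.2 and 4.44 in BRXL2, and 9.96 and 7.73 in myrBRX, again higher in library 1 of each line. The genes most like ARR4, the tested member with the lowest p in the test of any difference, were UBC2, PIA1, VIK, TPP2 and APX6, at r = 0.995, 0.982, 0.981, 0.981 and 0.977 among 4079 genes. UBC2, a ubiquitin-conjugating enzyme gene, stood at 48.3 and 107, 34.7 and 62.7, and 119 and 104 CPM. These values describe the 6 libraries, which share depth and composition, and were not tested.

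Lists of the other cytokinin genes, by role, were examined for the same lines. Of 62 such genes, 33 were tested, 20, among them the type-C regulators ARR22 and ARR24, had 0 counts in every library, and none was called in any comparison by edgeR. At an unadjusted p under 0.05 there were 0, 6 and 5 of the 33 for BRXL2 and myrBRX against the libraries labelled BRX and for myrBRX against BRXL2, where 8.85%, 14.2% and 12.4% of all genes tested had such a p. DESeq2 called 0, 5 and 3, beside 3.67%, 8.22% and 6.32% of all genes. The median log2 fold change of the 33 was 0.57, 0.59 and -0.17 in this order, against 0.03, -0.03 and -0.15 over all genes tested. For the 6 tested type-A genes the medians were -0.96, -0.18 and -0.00179, with 1, 3 and 3 genes above 0. The comparisons share libraries, so their values are not independent of each other.

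**Figure D5:**
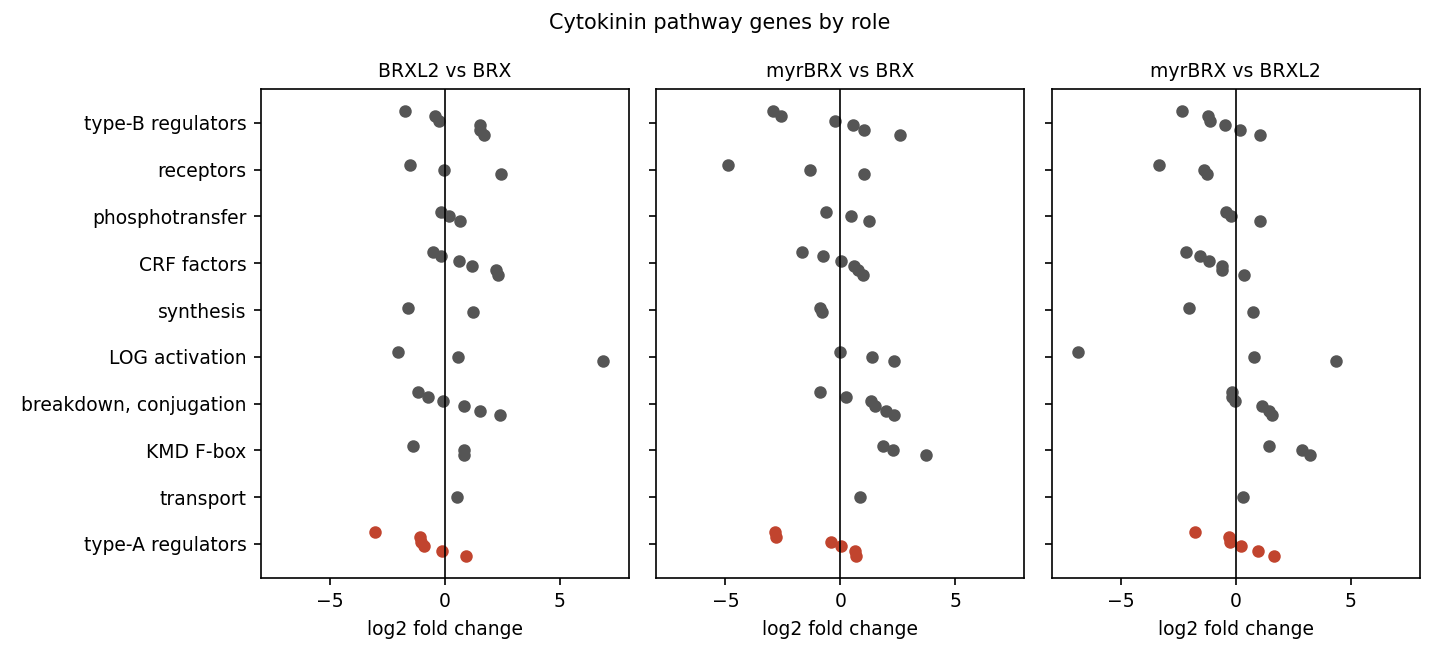
Log2 fold change of the tested cytokinin genes by role in the 3 comparisons, 1 point per gene, with the type-A genes in red. The type-A values lie between -3.03 and 1.64. The 3 KMD genes lie between 1.46 and 3.72 in both comparisons of myrBRX, and AHK2 lies lowest among the receptors there, at -4.89 and -3.35.

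Among the receptors, AHK2 was low in myrBRX. It stood at 19 and 31.4 CPM in the libraries labelled BRX, 12.8 and 4.52 in BRXL2, and 0.782 and 0.911 in myrBRX. The lines did not overlap, as for 33.2% of all genes between BRXL2 and the libraries labelled BRX. For myrBRX this share was 49.1% against the libraries labelled BRX and 49% against BRXL2. The log2 fold change of AHK2 in myrBRX was -4.89 ± 1.10 against the libraries labelled BRX and -3.35 ± 1.03 against BRXL2 (edgeR adjusted p = 0.202 and 0.248; DESeq2 6.46e-05 and 0.0124). AHK3 stood at 76.9 and 212, 1480 and 71.8, and 320 and 276 CPM. Its BRXL2 mean rested on BRXL2 1, and its log2 fold change there was 2.42 ± 1.22 against the libraries labelled BRX (adjusted p = 0.595). AHK4, the remaining receptor gene, had 0.964 to 7.54 CPM. All 3 receptors were thus detected in every library, as were the phosphotransfer genes AHP2, AHP3 and AHP5, while AHP1, AHP4 and the inhibitor AHP6 had 0 counts. AT5G39350 overlaps AHP3 on the same strand in the annotation.

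Of the 11 type-B genes, which encode the activators of the type-A genes, 6 were tested. ARR18 stood at 24.4 and 18 CPM in the libraries labelled BRX, 21.9 and 14 in BRXL2, and 2.8 and 4.22 in myrBRX. ARR10 stood at 25.6 and 11.1, 7.57 and 3.56, and 1.72 and 3.07 CPM. Both were lowest in the myrBRX libraries. Between myrBRX and the libraries labelled BRX, 49.1% of all genes did not overlap, in either direction, and between myrBRX and BRXL2 49%. The share of genes with myrBRX below both other lines was not counted. The log2 fold changes of myrBRX against the libraries labelled BRX were -2.59 ± 0.90 for ARR18 and -2.94 ± 1.09 for ARR10 (edgeR adjusted p = 0.266 and 0.283; DESeq2 0.0375 and 0.0396). The list as a whole was split, with 3 of 6 above 0 in that comparison and a median of 0.17.

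KMD genes encode F-box proteins that mark type-B regulators for degradation. KMD2 stood at 3.45 and 5.46 CPM in the libraries labelled BRX, 6.12 and 9.93 in BRXL2, and 42.4 and 74.8 in myrBRX. KMD4 stood at 63.9 and 175, 243 and 188, and 436 and 749 CPM. KMD1 stood at 6.99 and 249, 27.4 and 70.4, and 297 and 625 CPM. For each of the 3 genes the myrBRX libraries were above all others. Taken pair by pair and in either direction, 49.1% of all genes did not overlap between myrBRX and the libraries labelled BRX. Between myrBRX and BRXL2 this share was 49%. The share of genes with myrBRX above both other lines was not counted. KMD3 had 0 counts. The log2 fold change of KMD2 in myrBRX was 3.72 ± 0.89 against the libraries labelled BRX and 2.87 ± 0.85 against BRXL2 (edgeR adjusted p = 0.202 and 0.24; DESeq2 0.000748 and 0.0143). KMD4 had 2.31 ± 0.90 in the former comparison (edgeR adjusted p = 0.295; DESeq2 0.0463). AT3G59950 overlaps KMD4 on the opposite strand in the annotation.

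Hormone supply genes were sparse. Of the 11 synthesis genes, IPT2 and IPT9, which act on transfer RNA, were tested, and 7 had 0 counts throughout. IPT2 stood at 8 and 11.6, 4.17 and 2.25, and 8.28 and 2.47 CPM, and IPT9 at 4.76 and 0.132, 3.87 and 7.6, and 0.933 and 1.9 CPM. Neither was near the threshold (adjusted p for any difference = 0.704 and 0.745). Of the LOG genes, whose enzymes release the active hormone, LOG8 stood at 2.14 and 1.09, 0.68 and 0.107, and 9.84 and 6.33 CPM, with a log2 fold change of 4.34 ± 1.60 for myrBRX against BRXL2 (edgeR adjusted p = 0.309; DESeq2 0.0175). LOG5 was seen only in BRXL2, with 11 and 21 counts. This was at least 4.17-fold higher than in the libraries labelled BRX at a floor of 3 counts per library. LOG5 passed the filter on low counts through its BRXL2 libraries alone, so nothing is read from its test (edgeR adjusted p = 0.616).

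Among 6 of 9 breakdown and conjugation genes, 6 of 6 response factors and 1 of 2 transport genes that were tested, none was called. UGT76C2, which conjugates the hormone to glucose, stood at 2.17 and 12, 3.4 and 70.5, and 33.5 and 38.7 CPM, and CKX7, an oxidase that degrades it, at 1.83 and 3.47, 2.3 and 7.25, and 13.6 and 7.27 CPM. Their adjusted p for any difference was 0.51 and 0.604. The response factor CRF3 had its high value in BRXL2 2 alone, at 14.6 CPM against 0.827 to 2.53 in the other 5 libraries, and CRF2 ranged from 1.38 to 6.68 CPM (0.578 and 0.746). Of the phosphotransfer genes, AHP2 stood at 18.1 and 18.5 CPM in myrBRX against 6.4 to 11.3 in the other 4 libraries, and AHP5 at 0.963 to 4.98 CPM in all (0.661 and 0.963). PUP14, a cytokinin importer, stood at 35.7 to 147 CPM (0.824), and AT1G19780 overlaps it on the opposite strand.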

How the data were processed

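RNA of sorted leaf cells went through the NuGen Ovation kit, per the labels' protocols. The authors deposited 1 table of raw counts per library (whole numbers, 1 row per locus), and the submitters' processing notes name Bowtie2 and TAIR10. The program that counted reads, strand setting, handling of multiple alignments and annotation release are not given in the sources used here, so close paralogs could share reads. Names and exon lengths came from a TAIR10.1 annotation (32835 of 33602 loci matched, and 104 of 104 listed genes). Its coordinates belong to another build than the counts and are not printed.

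Counts were tested with edgeR 4.0.16 (R 4.3.3): filterByExpr with a minimum of 10 counts, TMM factors, glmQLFit and glmQLFTest with 1 coefficient per line over all 6 libraries (3 residual degrees of freedom), two-sided, Benjamini-Hochberg over 18174 genes, threshold 0.05. The biological coefficient of variation was 0.884. The fit was run on simulated data with large changes in well-counted genes only. It therefore does not bear on the power for smaller changes or for members with low counts. CPM use the TMM-scaled library sizes; 3 counts correspond to 0.0638 to 0.0992 CPM. Alternatives were DESeq2 1.42.0, RLE factors, no filter, a stricter filter (10 counts in 4 libraries), scaling without organelle and AT1G79245 counts, a replicate block, only the libraries compared, summed paralog pairs, and each library left out.

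The members and gene lists were chosen with earlier results of these data known. All members are named. Other cytokinin genes are named if called, or if among the 2 of lowest p in their role. AHK4, AHP3, KMD1, the single marker genes and the genes named for counts of 0 fall outside this rule and were chosen after their values were seen. Genes of like pattern are the 5 of highest Pearson r.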

Additional observations from a re-analysis of the deposited data

How the results depend on the processing

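Every alternative left 0 type-A genes past the threshold in each comparison. The stricter filter tested only 4 type-A genes, and 9 were tested without a filter. Calls over all genes were not stable. For BRXL2 and myrBRX against the libraries labelled BRX, myrBRX against BRXL2 and any difference, the counts of 17, 0, 9 and 41 became 667, 1493, 1149 and 1453 with DESeq2, 403, 724, 657 and 1423 without a filter, and 33, 29, 42 and 266 with the replicate number as a block. A stricter filter gave 0, 0, 0 and 2, the compared libraries alone 0, 0 and 22, and RLE factors 5 for myrBRX against BRXL2. Leaving out a library gave 6 to 221, 1 to 327, 24 to 119 and 130 to 661. Among the other cytokinin genes, 33 were tested with DESeq2 and with the replicate block, and 42 without a filter. For myrBRX against the libraries labelled BRX, 5 were called with DESeq2 and 2 without a filter. For myrBRX against BRXL2, 3 were called with DESeq2. For any difference, 2 were called with DESeq2, 2 without a filter and 1 with the replicate block (KMD2, edgeR adjusted p = 0.0486). The replicate numbers were not shown to pair the libraries: the library 1 minus library 2 differences correlated at 0.127, 0.0581 and 0.121 between lines. The replicate block changed no other call named here.

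Among alternative log2 fold changes of the 6 tested members, 218 kept their direction and 22 turned. Summing close pairs gave the ARR8 and ARR9 sum 0.27 for BRXL2 against the libraries labelled BRX, where ARR9 alone had -0.90. It gave this sum 0.13 for myrBRX against BRXL2, where ARR8 alone had -0.23. Both are counted as turns but are values of the sum, of which ARR8 held 64.1%. Scaling without organelle and AT1G79245 counts gave -0.027 for ARR9 (myrBRX against the libraries labelled BRX). With a library left out, BRXL2 against the libraries labelled BRX ran from -1.64 to 0.0913 for ARR4, -0.7 to 0.304 for ARR7, -0.0765 to 6.73 for ARR8, -2.45 to 0.485 for ARR9 and -10.49 to 4.14 for ARR16. For myrBRX against the same libraries the ranges were -1.61 to 0.26 for ARR7, -0.307 to 6.5 for ARR8, -0.637 to 1.44 for ARR9 and -4.81 to 4.38 for ARR16. For myrBRX against BRXL2 they were -5.03 to 3.19 for ARR6, -1.49 to 0.344 for ARR7, -0.941 to 0.234 for ARR8 and -1.78 to 7.7 for ARR16. Without a change of sign, ARR6 ran from -6 to -0.109 in BRXL2 and from -6.11 to -1.91 in myrBRX against the libraries labelled BRX, ARR4 from 0.0019 to 1.74 in the latter, and ARR9 from 0.223 to 2.51 in myrBRX against BRXL2. ARR6 did not pass the filter without BRX 1. A line left with 1 library was assumed to vary like the others. The cause of these changes was not tested. Depth limits ARR3, ARR5, ARR6, ARR15 and ARR17, which had fewer than 3 counts in 3 or more libraries.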

Other observations

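Some cytokinin genes outside the tests were seen in few libraries, and these were picked after their values were seen. ARR11, a type-B regulator, had 82 counts in BRXL2 1, 6 and 1 in myrBRX and 0 in the other 3 libraries. IPT5, a synthesis gene, had 24 and 3 counts in myrBRX and 0 elsewhere. CKX2, an oxidase gene, had 1 and 12 counts in the libraries labelled BRX and 0 elsewhere. ARR13, another type-B regulator, had 11 counts in myrBRX 1 and 0 in all other libraries.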
